A study of Mus musculus with 24 samples.

Results

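The glutathione S-transferases described here are 10 mouse genes, Gsta4, Gstm1, Gstm2, Gstm5, Gsto1, Gstp1, Gstt1, Gstk1, Mgst1 and Mgst2, which were taken by name and found by Ensembl identifier among the 53465 genes of the expression table. RNA was sequenced from 24 subcutaneous tumors of 8 BBN-induced Urothelium Roswell Park (BURP) lines, with 3 tumors per line. Each line began as a primary bladder tumor of a C57BL/6NTac mouse that drank water with 0.1% of the nitrosamine BBN from 8 weeks of age, for at most 36 weeks, and was then passed in C57BL/6NTac hosts of the same sex with an intact immune system. All 8 lines share that carcinogen, so no tumor is an untreated control. Of the 6 lines classified as basal/squamous (Ba/Sq), those numbered 12, 17 and 18 came from males, and females gave BURP-21BaSq, BURP-24BaSq and also BURP-25BaSq. The stromal-rich, sarcomatoid line BURP-16SR and the neuroendocrine-like line BURP-19NE came from male mice. The stromal-rich and neuroendocrine-like classes are thus 1 line each, its 3 tumors all go back to the same donor mouse, and p-values measure the spread between tumors rather than between independent cancers of a class. BURP-24BaSq and BURP-16SR are the pair that the study treated with cisplatin in mice, and no source used here states that a sequenced tumor had received the drug.

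Glutathione S-transferases join the tripeptide glutathione to electrophilic molecules, among them carcinogen metabolites, products of lipid peroxidation and some alkylating drugs. The conjugates then leave the cell through ATP-driven exporters of the ABCC family. Glutathione also binds platinum drugs such as cisplatin, and the pi class enzyme is among the transferases most often measured in tumors treated with platinum. The cytosolic enzymes fall into classes: Gsta4 is an alpha enzyme that acts on the lipid aldehyde 4-hydroxynonenal, Gstm1, Gstm2 and Gstm5 are mu enzymes, Gstp1 is a pi enzyme that also binds the stress kinase JNK, Gstt1 is a theta enzyme, and Gsto1 is an omega enzyme that acts mainly as a thioltransferase and dehydroascorbate reductase. Gstk1 is the kappa enzyme of mitochondria and peroxisomes. Mgst1 and Mgst2 belong to an unrelated family of membrane proteins, and Mgst2 can also make leukotriene C4.

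The genes lie at separate loci except for the mu cluster (all coordinates GRCm38). Gstm5 occupies chr3:107895821-107898686 on the plus strand, Gstm2 chr3:107981702-107986453 and Gstm1 chr3:108012255-108017973 on the minus strand. Gstp1 occupies chr19:4035407-4037985 on the minus strand. Many transferase genes are induced by the transcription factor NRF2, which binds antioxidant response elements of the core TGACNNNGC, and AP-1 factors bind TGANTCA. The 250 bases upstream of each RefSeq start (GRCm38.p6) were searched on both strands for these letters and for TGANTCAGC, whose matches all hold TGANTCA as well. A promoter was matched for 9 of the 10 genes, and Gsta4 was not matched. The windows of 30 bases below hold the matches to TGANTCAGC and to TGACNNNGC in promoters of the 10 genes, and that of Gstp2, a near-identical neighbor of Gstp1, is added because its values are needed beside those of Gstp1. Capitals mark the match, and each window is written 5′ to 3′ on the strand of its gene.
Gstp1, chr19:4037967-4037996, minus strand: tccaacgtgtTGAGTCAGCatccggggcgg
Gstp2, chr19:4042291-4042320, minus strand: tccaacgtgtTGAGTCAGCatccggggcgg
Gstm5, chr3:107895802-107895831, plus strand: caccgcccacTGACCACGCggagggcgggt
Mgst1, chr6:138140461-138140490, plus strand: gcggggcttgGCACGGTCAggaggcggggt
The Gstp1 match lay 74 bases and the Gstp2 match 89 bases upstream of the start, and the letters of both windows were identical. The Mgst1 match reads TGACNNNGC on the opposite strand. The shorter TGANTCA was also matched without the final GC, 52 bases upstream in Mgst2 and 176 bases upstream in Gstm5. TGANTCAGC was present in 1.02%, TGANTCA in 6.75% and TGACNNNGC in 10.2% of all 32851 RefSeq promoters searched in this way. Such a match is a description of the letters and no measurement of binding.

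Levels are in CPM, the estimated count scaled to a common library size. The total estimated count was 9295747 in the shallowest and 25370356 in the deepest library (median 17693198), and a floor of 3 counts corresponded to 0.106 to 1.33 CPM. The summed CPM of 10 basal and squamous markers was 10636 to 23331 in the Ba/Sq tumors, 2.71 to 6.91 in BURP-16SR and 4.38 to 7.07 in BURP-19NE. The 10 neuroendocrine markers summed to 252 to 361 CPM in BURP-19NE and to at most 111 CPM in any other tumor, but 2 to 5 of the 10 were at 0 counts in a BURP-19NE tumor. The defining markers Syp (0.251 to 0.541 CPM) and Chga (0 to 0.135 CPM) were no higher in BURP-19NE than elsewhere. Elsewhere they reached 1.09 and 14.6 CPM, so the line is named here by its label. These are RNA levels, low in every tumor for Syp. By immunohistochemistry the paper reports high synaptophysin, the protein of Syp, in BURP-19NE and in BURP-16SR. It also reports a high correlation of BURP-19NE, and of 1 of the 3 BURP-16SR tumors, with the neuroendocrine-like class. Neutrophil markers summed to 13.6 to 1232 CPM in the Ba/Sq tumors, 11.5 to 24.4 CPM in BURP-16SR and 1.89 to 3.6 CPM in BURP-19NE. In such bulk samples fewer cells of a type and less RNA per cell cannot be told apart. Among the BURP-25BaSq tumors, 61.9% of the counts of C102-M30 fell on 1 ribosomal RNA gene. The profile of C102-M1 over 21383 genes correlated at r = 0.98 with the BURP-21BaSq tumors and at r = 0.91 with its own line, so the comparison of BURP-25BaSq with the other Ba/Sq lines is also given without tumors of it. Tumor P4 of BURP-18BaSq was also slightly nearer to another line, with r = 0.93 to BURP-17BaSq and r = 0.927 to its own.

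Gsto1 was the most abundant transferase of the Ba/Sq tumors and Gsta4 the next. Gsto1 measured 153 CPM in the lowest, 1581 in the median and 6045 in the highest of the 18 Ba/Sq tumors, against 67.9, 56.6 and 68.7 CPM in the 3 BURP-16SR tumors and 142, 151 and 164 CPM in the 3 BURP-19NE tumors. All BURP-16SR tumors lay below every Ba/Sq tumor, while the BURP-19NE tumors reached the range of the lowest Ba/Sq tumor, C148-M3 of BURP-18BaSq. Gsta4 ranged from 35.9 CPM to 891 CPM with a median of 273 CPM in the Ba/Sq tumors, and was 0.421, 0.154 and 0.348 CPM in BURP-16SR and 0.293, 0.733 and 2.21 CPM in BURP-19NE. The Ba/Sq tumors did not overlap with either of the other lines for Gsta4, and all 3 BURP-16SR tumors held at most 5 counts of it.

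Gstp1 was highest in BURP-19NE. It measured 155, 196 and 133 CPM in BURP-19NE, 27.2 to 119.6 CPM with a median of 44.6 CPM in the Ba/Sq tumors, and 46.3, 33.2 and 49.4 CPM in BURP-16SR. Every BURP-19NE tumor exceeded every other tumor for Gstp1, and BURP-16SR lay within the Ba/Sq range. Gstm5 was also highest in BURP-19NE, at 10.4, 13 and 7.85 CPM, against 0.751 to 7.79 CPM with a median of 3.33 CPM in the Ba/Sq tumors and 0.337, 2.08 and 0.348 CPM in BURP-16SR. The lowest BURP-19NE tumor and the highest Ba/Sq tumor were close for Gstm5. Gstk1 was 0.506, 0.615 and 0.348 CPM in BURP-16SR, below the Ba/Sq range of 1.75 to 9.14 CPM and below 2.59, 2.36 and 2.17 CPM in BURP-19NE.

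Mgst2 was highest in BURP-12BaSq (30.6 ± 2.27 CPM, SD, n = 3) and next in BURP-16SR (23 ± 6.5 CPM, n = 3), and lowest in BURP-19NE (3.12 ± 1.7 CPM, n = 3). Mgst1 spread widely within lines. Its 3 BURP-17BaSq tumors measured 23.9, 0.25 and 7.01 CPM, and the 18 Ba/Sq tumors ranged from 0.25 to 66.1 CPM. Gstm1 ranged from 1.75 to 184 CPM and Gstm2 from 1.23 to 23.5 CPM in the Ba/Sq tumors, and BURP-16SR and BURP-19NE lay within both ranges. Gstt1 was at most 2.48 CPM in any tumor and had 0 counts in 4 of them.

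**Figure D1:**
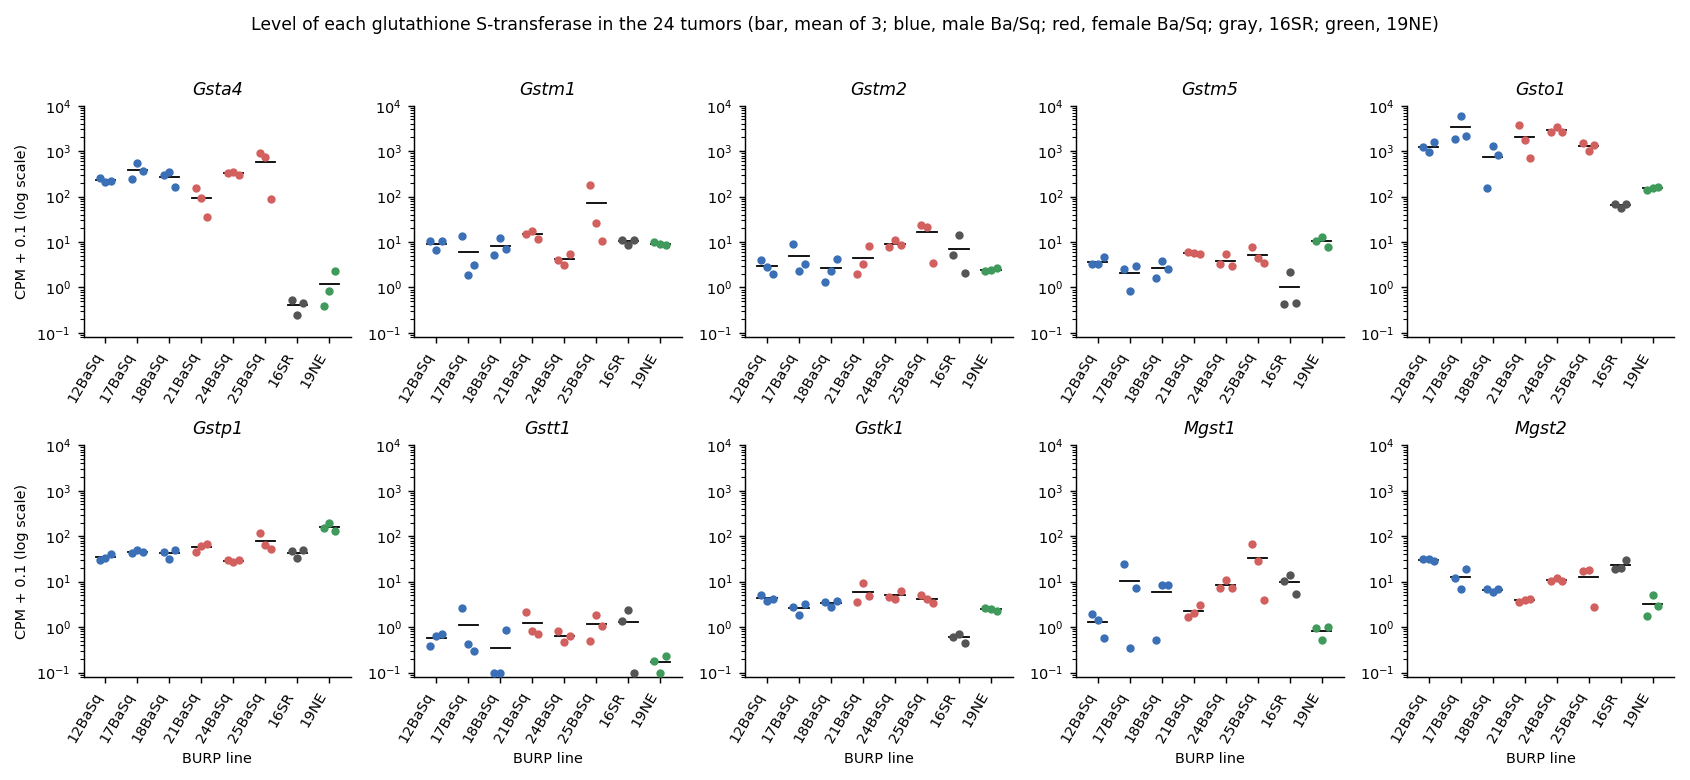
Level of each of the 10 genes in the 24 tumors, as CPM plus 0.1 on a logarithmic axis, by line, with a bar at the mean of 3 tumors. Gsta4 sits at 35.9 to 891 CPM in the Ba/Sq tumors and at or below 2.21 CPM in the other lines, while Gstp1 is highest in BURP-19NE at 133 to 196 CPM.

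Levels of different genes were compared per kilobase (kb) of exon. The sum of the 10 genes on that scale was 629.9 to 1997 CPM per kb as the mean of each Ba/Sq line, 199 ± 20.7 in BURP-19NE and 83.8 ± 3.53 in BURP-16SR (SD, n = 3). Gsto1 made up 21.7% to 91.6% of the sum in the Ba/Sq tumors, with a median of 77.8%, and Gsta4 a median of 17.1%. Gsta4 was the larger share in C148-M3 of BURP-18BaSq (67.3%) and in C102-M30. In BURP-19NE Gstp1 took a median of 53% and Gsto1 37%, and in BURP-16SR Gsto1 took 39.2% and Gstp1 34.9%. The summed level of these enzymes was therefore carried mainly by the omega and alpha enzymes in the Ba/Sq tumors, and by the omega and pi enzymes in both other lines.

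**Figure D2:**
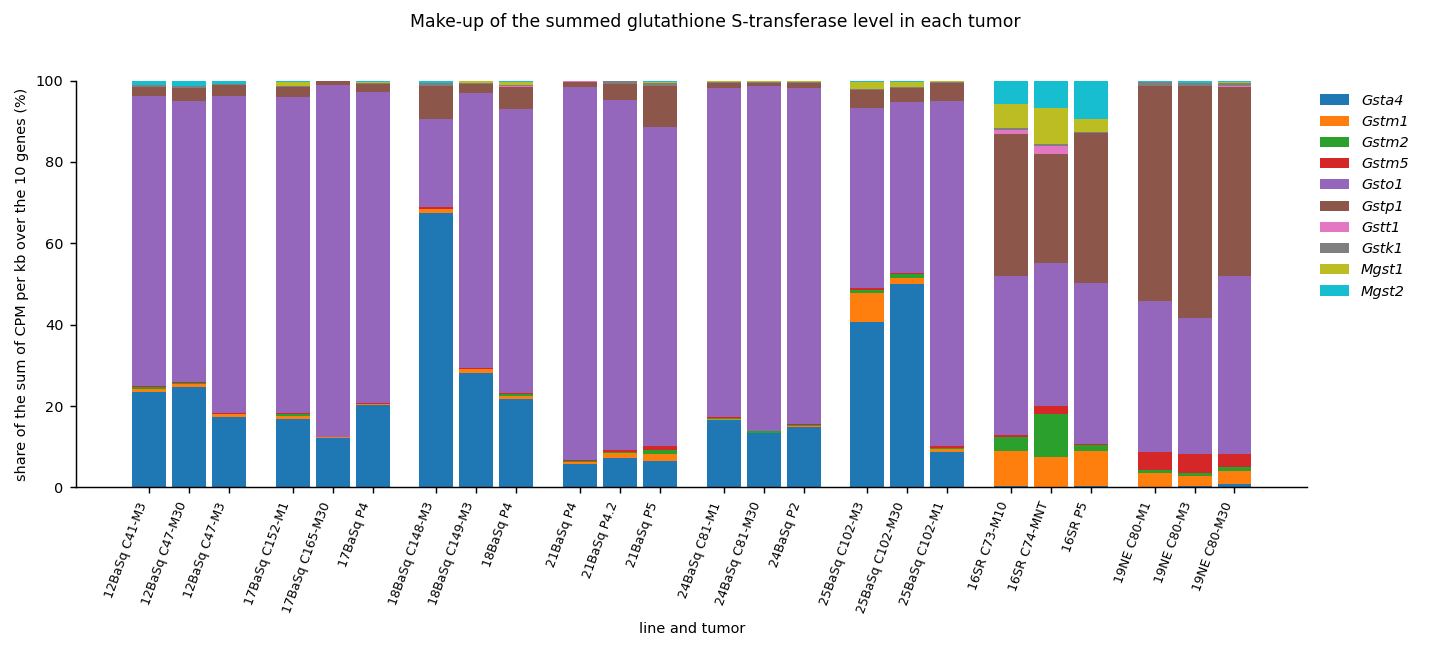
Share of each gene in the summed level of the 10 genes per kb of exon, in percent, for each of the 24 tumors. Gsto1 had a median share of 77.8% in the Ba/Sq tumors, and Gstp1 had a median share of 53% in BURP-19NE.

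The levels were compared between groups with edgeR's quasi-likelihood test, and a gene was called at a Benjamini-Hochberg adjusted p below 0.05 over all genes tested with more than a 2-fold change. The comparisons share tumors: BURP-16SR enters 3 of them, and the Ba/Sq tumors enter most.

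In BURP-19NE against the 18 Ba/Sq tumors, the pi enzyme Gstp1 and the mu enzyme Gstm5 were higher, and Gsta4, Gsto1, Mgst2 and Gstt1 were lower. These 6 of 10 genes were called, where 24.3% of the 20995 genes tested were. The higher calls were 2 of 10 against a background of 9.33%, and the lower calls 4 of 10 against 15%. For 3 of the 10 genes no BURP-19NE tumor lay within the Ba/Sq range, beside 18.2% of all genes. The median log2 fold change was -1.73 over the 10 genes and -0.14 over all genes. Gstp1 was 3.42-fold higher (log2 fold change 1.77, SE 0.29, adjusted p = 7.27e-05) and Gstm5 2.77-fold higher (1.47, SE 0.37, adjusted p = 0.00428). Gsta4 fell by 8.13 on the log2 scale (SE 1.08, adjusted p = 6.86e-06) and Gsto1 by 3.65 (SE 0.77, adjusted p = 0.00102). The calls on Gstp1, Gsta4 and Gsto1 held with each of the 21 tumors left out in turn, and the Gsta4 difference was -9.27 without C80-M30. Neutrophil and basal markers were low in BURP-19NE beside the Ba/Sq tumors, as given above, and their part in these differences was not tested.

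The other calls of that comparison were lost without 1 tumor or another. Without C80-M3 the Gstm5 difference was 1.25 with an adjusted p of 0.055. Mgst2 fell by 2.02 (SE 0.74, adjusted p = 0.0387), and its adjusted p was 0.167 without C80-M1, 0.0602 without C80-M3 and 0.126 without C80-M30. Gstt1 had 2, 0 and 3 counts in BURP-19NE, too few for a fold change, and its adjusted p of 0.0326 became 0.101, 0.136 and 0.0599 without C80-M1, C80-M3 and C80-M30. Mgst1 was 0.837, 0.419 and 0.902 CPM in BURP-19NE and missed the threshold (adjusted p = 0.0588), which it passed without C148-M3 (0.0433), C165-M30 (0.0438) or C47-M3 of BURP-12BaSq (0.045). The number of genes called was 3 without C80-M3. With the counts of each line summed, so that BURP-19NE is 1 sample against 6, only Gsta4 was called, with adjusted p = 0.0577 for Gsto1, 0.0935 for Gstp1 and 0.164 for Gstm5.

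In BURP-16SR against the Ba/Sq tumors, 4 of the 10 genes were called and all 4 were lower, where 19.2% of genes were called and 8.62% were called lower and 10.5% higher. Gsta4 fell by 9.89 on the log2 scale (SE 1.13, adjusted p = 1.31e-06), Gsto1 by 4.85 (SE 0.85, adjusted p = 2.41e-04) and the organelle enzyme Gstk1 by 2.99 (SE 0.44, adjusted p = 3.30e-05). For each of these 3 genes no BURP-16SR tumor overlapped with the Ba/Sq tumors, which held for 11.5% of all genes. Gsta4 held 5, 2 and 5 counts in C73-M10, C74-MNT and P5 of BURP-16SR, so the size of its fold change is uncertain. Gstm5 fell by 1.95 (SE 0.60, adjusted p = 0.0206), a call that was lost without C73-M10 (-1.57, adjusted p = 0.128) or without P5 of BURP-16SR (-1.64, adjusted p = 0.103), and with counts summed per line (adjusted p = 0.168). Without C74-MNT it was -3.38. The median was -0.47 over the 10 genes and -0.03 over all genes. Gstp1 differed by -0.09 (95% interval -0.78 to 0.61), so that a difference of 2-fold in either direction lay outside the interval, and Mgst1 by 0.06 with an interval of -2.25 to 2.36. Mgst2 differed by 0.92 (adjusted p = 0.239). Fibroblast markers summed to 626, 7765 and 20639.8 CPM in the BURP-16SR tumors and to 246 to 10251 CPM in the Ba/Sq tumors, and their part in these differences was not tested.

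Set against each other, BURP-16SR had more of both membrane enzymes and BURP-19NE more of the pi, kappa, omega and Gstm5 enzymes. Of the 8 genes tested, 6 were called, against 23.6% of all genes (14.8% higher and 8.86% lower in BURP-16SR), and Gsta4 and Gstt1 were too low in both lines to be tested. Mgst1 was 14.5-fold higher in BURP-16SR (log2 fold change 3.86, SE 0.52, adjusted p = 0.00299) and Mgst2 7.83-fold higher (2.97, SE 0.44, adjusted p = 0.00414). Gstp1 fell by 1.82 (SE 0.21, adjusted p = 0.00197), Gstk1 by 2.17 (SE 0.34, adjusted p = 0.00509) and Gsto1 by 1.15 (SE 0.13, adjusted p = 0.00189). Gstm5 fell by 3.38 (SE 0.74, adjusted p = 0.0146), which was lost without C80-M1 (adjusted p = 0.0523) or C80-M3 (adjusted p = 0.055) and was -4.82 without C74-MNT. Gstm2 was not called (1.66, adjusted p = 0.104) except without P5 of BURP-16SR, where the difference was 2.07 with adjusted p = 0.0135. With all 24 tumors in 1 fit the Gsto1 call was lost (-1.24, adjusted p = 0.114). The tumors did not overlap for 6 of the 8 genes tested, beside 51.4% of all genes tested.

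**Figure D3:**
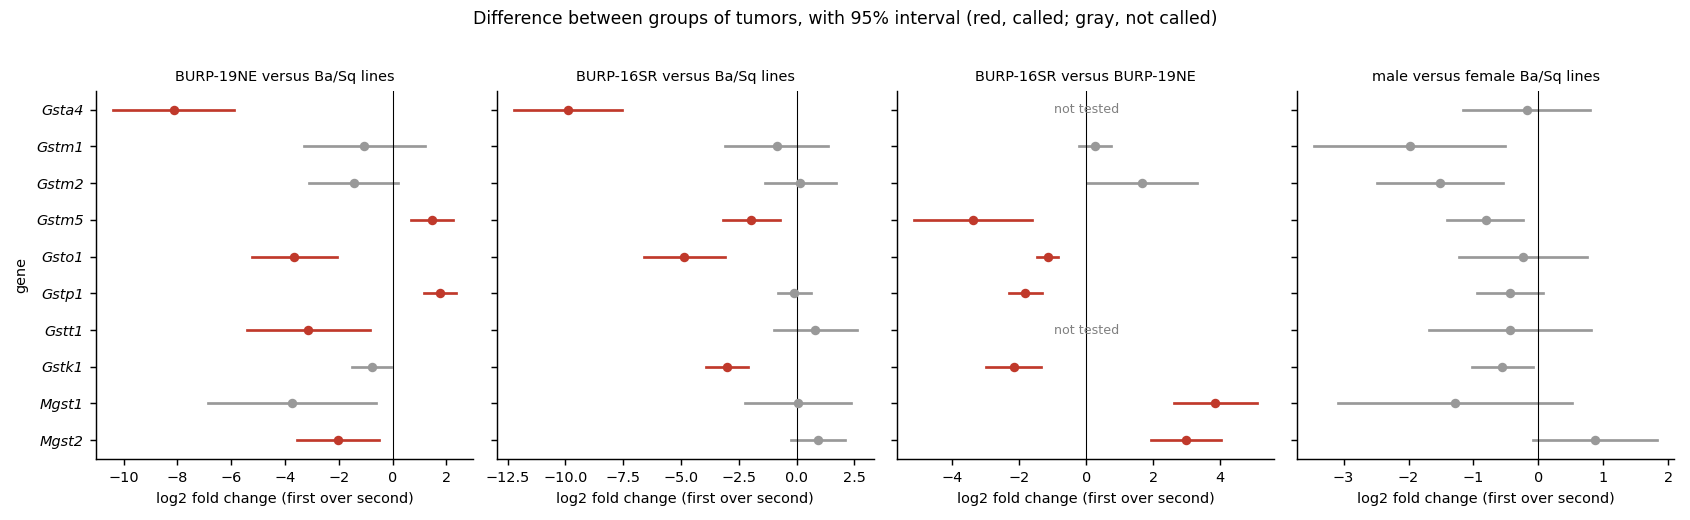
Log2 fold change of each gene, with its 95% interval, in comparisons between groups of tumors (red, called; gray, not called). The point for Gsta4 lies at -8.13 in BURP-19NE and at -9.89 in BURP-16SR against the Ba/Sq tumors, and that for Gstp1 at 1.77 and -0.09. The BURP-16SR tumors held at most 5 counts of Gsta4, so the size of that difference is uncertain.

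The pair of lines given cisplatin, BURP-24BaSq and BURP-16SR, differed in 5 of the 10 genes. Of all genes 29% were called (13.2% higher and 15.8% lower in BURP-24BaSq). The pair is a female Ba/Sq line and a male stromal-rich line, each of its own donor, so sex, class and donor cannot be told apart. Gsta4, Gsto1 and Gstk1 were also lower in BURP-16SR against the Ba/Sq tumors as a whole, as given above. The tumors did not overlap for 7 of the 10 genes, beside 53.9% of all genes. BURP-24BaSq was higher in Gsta4 (335, 344 and 292 CPM; log2 fold change 9.96, SE 0.32, adjusted p = 2.49e-05), in Gsto1 (2616, 3486 and 2606 CPM; 5.44, SE 0.26, adjusted p = 5.00e-05) and in Gstk1 (4.56, 4 and 6.04 CPM; 3.24, SE 0.38, adjusted p = 0.00105). The size of the Gsta4 difference is uncertain, since the BURP-16SR tumors held at most 5 counts of Gsta4. BURP-24BaSq was lower in Gstm1, at 3.9, 3.06 and 5.22 CPM against 10.9, 8.62 and 11.1 CPM (-1.38, SE 0.28, adjusted p = 0.00945). Mgst2 was lower by 1.14 (SE 0.22, adjusted p = 0.00788), but by less than 2-fold without P5 of BURP-16SR (-0.84). With all 24 tumors in 1 fit the Gstm1 and Mgst2 calls were lost and Gstm5 was called. Gstm5 differed by 1.96 (adjusted p = 0.0774) and by 3.39, then called, without C74-MNT. Gstp1 was 29.2, 27.2 and 29.3 CPM in BURP-24BaSq, below all 3 BURP-16SR tumors, a difference of less than 2-fold (-0.64, SE 0.18, adjusted p = 0.0299). Leaving P5 of BURP-16SR out, which is its tumor with 0 counts of Gstt1, added a call on Gstt1.

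Across all 8 lines, 9 of the 10 genes differed by the F test, beside 76.7% of the 21383 genes tested, and Gstt1 did not (adjusted p = 0.182). The share of the variance of log2 CPM that lay between lines was 96.1% for Gsta4, 91% for Gstk1, 88.6% for Gsto1 and for Gstp1, 79.1% for Mgst2 and 77.7% for Gstm5, above the median of all genes, 69.1%. It was 59.2% for Gstm1, 54.5% for Mgst1, 51.3% for Gstm2 and 42.2% for Gstt1. Without C102-M1 and C102-M30 the share for Gstm1 became 82.4% and the median of all genes 75.5%.

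Among the 6 Ba/Sq lines, each line was compared with the other 5 (15 tumors). In BURP-12BaSq 1 gene of 10 was called, where 4.59% of genes were. Mgst2 measured 32, 31.7 and 27.9 CPM there, above all other Ba/Sq tumors (2.68 to 18.4 CPM), a separation seen for 7.06% of all genes, and was 3.32-fold higher (log2 fold change 1.73, SE 0.43, adjusted p = 0.0213). With 2 tumors left in the line the adjusted p was 0.0954 without C41-M3, 0.116 without C47-M30 and 0.0991 without C47-M3. Mgst1 was 1.86 CPM in C41-M3, 1.31 CPM in C47-M30 and 0.478 CPM in C47-M3, and was not called (-3.27, adjusted p = 0.142).

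No gene of the 10 was called in BURP-17BaSq, BURP-18BaSq, BURP-21BaSq or BURP-24BaSq against the other Ba/Sq lines, where edgeR called 1.07%, 10.1%, 0.0195% and 1.65% of all genes. At an unadjusted p below 0.05 there were 2 of the 10 in BURP-17BaSq (Gstm5 and Gstk1), 1 in BURP-18BaSq (Gsto1), 2 in BURP-21BaSq (Gsta4 and Mgst2) and 1 in BURP-24BaSq (Gstp1), beside 15.2%, 31.2%, 10.8% and 18.1% of all genes. DESeq2 called 0, 1, 2 and 0 in the same order, and its share over all genes is not given here. Gsta4 was 154, 93.7 and 35.9 CPM in BURP-21BaSq, against 89.2 to 891 CPM in the other Ba/Sq tumors (-1.91, SE 0.59, adjusted p = 0.247), and Mgst2 there was 3.47, 3.8 and 4.15 CPM (-1.93, SE 0.63, adjusted p = 0.275). Gsto1 was 153, 1311 and 822 CPM in BURP-18BaSq (-1.51, SE 0.63, adjusted p = 0.107). Without P4 of BURP-18BaSq, which left the line with 0 counts of Gstt1, Gstt1 was called.

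Gsto1 was the transferase that followed the neutrophil markers most closely within the Ba/Sq tumors. Over these 18 tumors, which share lines and libraries, log2 CPM of Gsto1 and of the summed neutrophil markers correlated at r = 0.81, against r = 0.33 for Gsta4 and r = 0.47 between Gsto1 and the basal markers. The part of neutrophils in the Gsto1 level was not tested. Mgst1 and the fibroblast markers correlated at r = 0.5 over the same tumors, and some other pairs of gene and marker list were stronger. Among them were Gsta4 with luminal (r = 0.65), Gstt1 with endothelial (r = 0.66) and Mgst2 with adipocyte markers (r = -0.67). Gsta4 and the basal markers correlated at r = 0.09. C152-M1 of BURP-17BaSq, the highest male Ba/Sq tumor for Mgst1, had 10251 CPM of fibroblast markers, while C102-M3 of BURP-25BaSq, the highest of all Ba/Sq tumors for Mgst1, had 507 CPM.

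**Figure D4:**
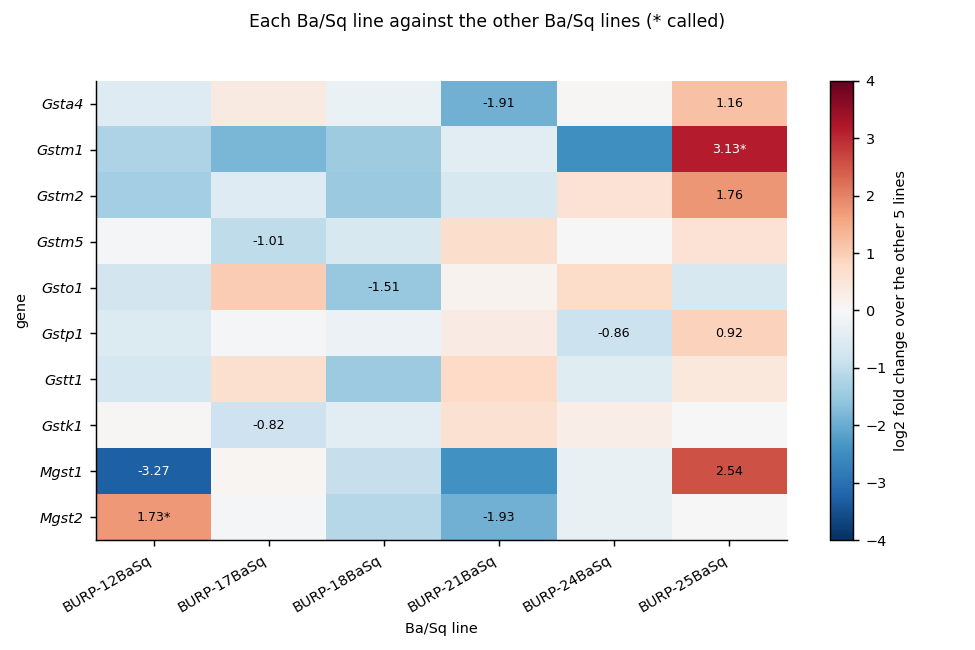
Log2 fold change of each gene in each Ba/Sq line over the other 5 Ba/Sq lines, as color, with the value printed where the unadjusted p was below 0.05 and a star where the gene was called. The stars mark Mgst2 in BURP-12BaSq (1.73) and Gstm1 in BURP-25BaSq (3.13).

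In BURP-25BaSq 1 gene of 10 was called, where 0.273% of genes were, and 5 of the 10 had an unadjusted p below 0.05, all of them higher, beside 9.35% of all genes in either direction. Gstm1 measured 184 CPM in C102-M3, 26.2 CPM in C102-M30 and 10.5 CPM in C102-M1, against a mean of 8.44 ± 4.94 CPM (SD) in the 15 other Ba/Sq tumors. C102-M1 lay within the range of the other Ba/Sq tumors, and the other two tumors lay above it. The log2 fold change of Gstm1 was 3.13 (SE 0.56, adjusted p = 0.0147), and without C102-M3 it was 1.10 (adjusted p = 0.967). The same order of the 3 tumors was seen for other members, but not for Gsto1, Gstt1 or Mgst2. In C102-M3, C102-M30 and C102-M1, Gsto1 was 1551, 1011 and 1400.3 CPM, and Gstt1 was 0.398, 1.78 and 0.95 CPM. Mgst1 was 66.1, 28 and 3.86 CPM and Gstp1 was 119.6, 64.1 and 53.3 CPM in C102-M3, C102-M30 and C102-M1. Gsta4 was 891, 754 and 89.2 CPM and Gstm2 was 23.5, 21.8 and 3.41 CPM. Mgst2 was close in the first pair, at 17.4 and 18.2 CPM, and was 2.68 CPM in C102-M1. Among these genes the C102-M1 value lay within the BURP-21BaSq range for Gsta4, Gstm2, Gstp1, Gsto1 and Gstt1. It lay a little below that range for Gstm1 and Mgst2, and above it for Mgst1. Over the 3 tumors as labelled, the differences were 1.76 for Gstm2 (SE 0.55, adjusted p = 0.268), 2.54 for Mgst1 (SE 0.85, adjusted p = 0.309), 0.92 for Gstp1 (SE 0.26, adjusted p = 0.194) and 1.16 for Gsta4 (SE 0.52, adjusted p = 0.503). Without C102-M1, Gstm2 was called as well (2.25, adjusted p = 0.048), and the differences were 3.65 for Gstm1, 3.08 for Mgst1, 1.14 for Gstp1 and 1.67 for Gsta4. Without C102-M3 they were 1.48 for Mgst1, 0.49 for Gstp1 and 0.70 for Gsta4, and without C102-M30 they were 2.61, 1.02 and 0.88, none of them called. With C102-M3 as the 1 tumor of the line, taken to vary like the other tumors, Gstm1 alone was called (4.41, adjusted p = 8.11e-04).

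**Figure D5:**
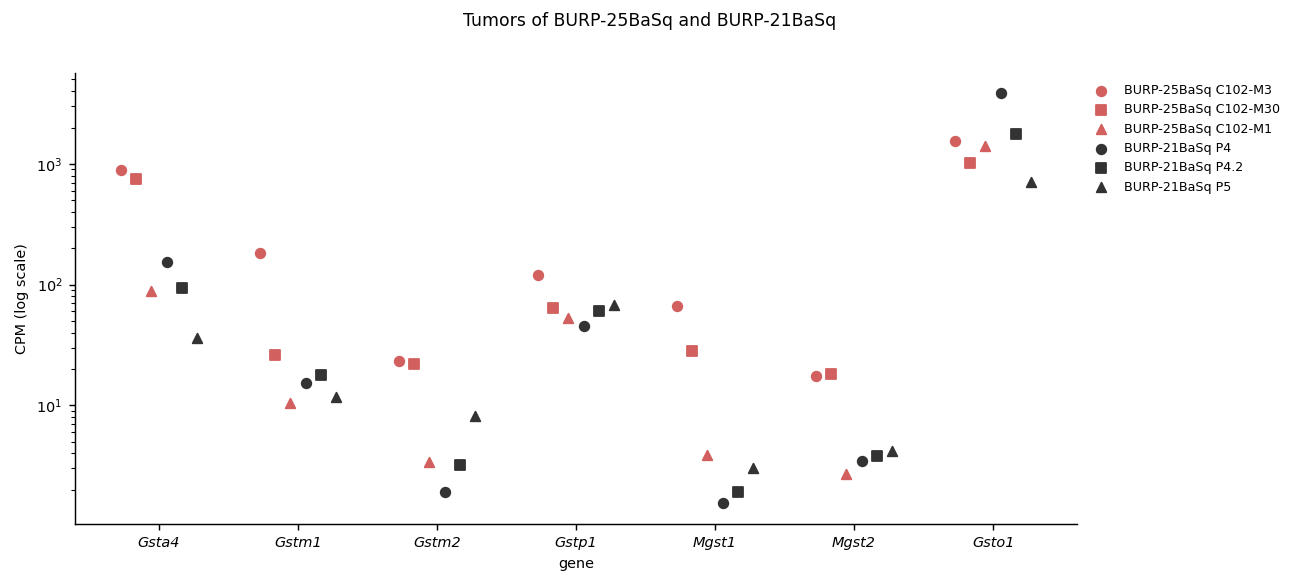
CPM of 7 genes on a logarithmic axis in the 3 tumors of BURP-25BaSq (red) and the 3 of BURP-21BaSq (black). C102-M3 and C102-M30 measured 891 and 754 CPM of Gsta4, and C102-M1 measured 89.2 CPM, within the 35.9 to 154 CPM of BURP-21BaSq.

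Male and female Ba/Sq lines (9 tumors each) were compared, and no gene of the 10 was called by edgeR, where 2.31% of genes were. The 4 genes with an unadjusted p below 0.05 were the 3 mu enzymes and Gstk1, with lower means in males, beside 23.1% of all genes in either direction. Gstm2 was 3.39 ± 2.26 CPM in males and 9.91 ± 7.81 CPM in females (SD, n = 9; log2 fold change -1.51, SE 0.46, adjusted p = 0.0632). DESeq2 called Gstm2 alone (adjusted p = 0.0138), and edgeR called it without C152-M1 (-1.84, adjusted p = 0.0274) or without P4 of BURP-21BaSq (-1.65, adjusted p = 0.0373). Gstm1 was 7.73 ± 4.07 CPM and 30.9 ± 58 CPM (-1.98, SE 0.70, adjusted p = 0.0994), and without C102-M3 the difference was -0.57 (adjusted p = 0.46). Gstm5 was 2.73 ± 1.14 CPM and 4.85 ± 1.55 CPM (-0.81, SE 0.28, adjusted p = 0.0905), and Gstk1 differed by -0.56 (adjusted p = 0.14). The male and female ranges overlapped for all 10 genes. Each sex is 3 lines, and with the counts of each line summed no gene of the 10 was called.

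Gstp1 shares sequence with Gstp2, whose coding sequence is 98.1% identical to it, and the estimated count of Gstp1 was not whole in 23 of 24 tumors, as happens when reads are divided between genes. Gstp2 was 2.69 ± 0.626 CPM in BURP-19NE (n = 3), 18.9 ± 29.7 CPM in the Ba/Sq tumors (n = 18) and 3.33 ± 1.51 CPM in BURP-16SR (n = 3). The sum of the pair was 164 ± 31.6 CPM in BURP-19NE, 66.8 ± 49.9 CPM in the Ba/Sq tumors (51.7 ± 15.5 CPM in the 15 outside BURP-25BaSq) and 46.3 ± 9.98 CPM in BURP-16SR. The sum in BURP-19NE ranged from 136 to 199 CPM, so that it overlapped with the Ba/Sq tumors through C102-M3, at 249 CPM. Gstp2 made up 1.03% to 2.42% of the sum in BURP-19NE, 10.5% to 51.9% in the Ba/Sq tumors and 5.26% to 8.97% in BURP-16SR. Gstp2 was called higher in BURP-25BaSq (log2 fold change 2.65, SE 0.46, adjusted p = 0.0115), but not without C102-M3 (1.57, adjusted p = 0.813) or C102-M30 (2.72, adjusted p = 0.082). Counts of Gstm5 were not whole in 16 tumors and those of Gstm1 in 11, so that mu class values may also hold reads divided with near relatives.

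The other genes of glutathione metabolism were counted in lists. Of 25 further transferase and transferase-like genes, 21 were tested in BURP-19NE against the Ba/Sq tumors and 10 were called, all lower, beside 15% of all genes called lower (median log2 fold change -1.48, and -0.14 over all genes). The alpha enzyme Gsta1 was 0.647 to 68.5 CPM in the Ba/Sq tumors and at most 0.0451 CPM in BURP-19NE, and the theta enzyme Gstt3 was 7 CPM on average against 0.155 CPM (-5.41, SE 0.49, adjusted p = 3.49e-08). In BURP-16SR against the Ba/Sq tumors, 20 were tested and 5 were called lower, beside 8.62% of all genes, Gsta1 (at most 0.139 CPM) and Gstt3 (-1.50, SE 0.38, adjusted p = 0.00682) among them. Gsta1 and its near relative Gsta2 may share reads. BURP-24BaSq exceeded BURP-16SR in 5 of 17 tested and fell below it in 1, beside 29% of all genes called, with Gsta1 at 45.6 CPM on average against 0.072 CPM.

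Of 18 genes of glutathione synthesis and recycling, 2 were higher and 3 lower in BURP-19NE, and 2 were higher and 2 lower in BURP-16SR, against the Ba/Sq tumors, shares near the 24.3% and 19.2% of all genes called. Cth, which makes cysteine from cystathionine, was 2.32 higher on the log2 scale in BURP-19NE (SE 0.41, adjusted p = 1.75e-04) and 2.30 higher in BURP-16SR (SE 0.41, adjusted p = 2.60e-04), and no tumor of either line overlapped with the Ba/Sq range of 1.65 to 8.9 CPM. With counts summed per line its adjusted p was 0.0695 and 0.0974. In BURP-24BaSq against BURP-16SR, 17 were tested, and 4 were higher and 4 lower, beside 13.2% and 15.8% of all genes. Ggct, a gamma-glutamylcyclotransferase of glutathione breakdown, was lower in BURP-24BaSq by 4.27 (14.4 against 267 CPM, SE 0.24, adjusted p = 7.60e-05). Of the 9 peroxidases, 8 were tested in BURP-19NE against the Ba/Sq tumors, with 2 higher and 2 lower, beside 24.3% of all genes called. In BURP-16SR 7 were tested, with 2 higher and 1 lower, beside 19.2%. Gpx2, an epithelial glutathione peroxidase, was 19.5 to 308 CPM in the Ba/Sq tumors and had 0 counts in all 6 tumors of BURP-16SR and BURP-19NE.

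Of 14 genes of conjugate export and breakdown, 11 were tested. In BURP-19NE 2 were called, both higher, beside 24.3% of all genes. In BURP-16SR edgeR called none, beside 19.2% of all genes, and 1 had an unadjusted p below 0.05, beside 37.3%. Among 20 NRF2 genes outside glutathione metabolism, 3 were lower in BURP-19NE, and 1 was higher and 2 were lower in BURP-16SR, no larger a share than the 24.3% and 19.2% of all genes. Txn1, the cytosolic thioredoxin, fell by 1.32 in BURP-19NE (SE 0.26, adjusted p = 5.64e-04) and by 1.51 in BURP-16SR (SE 0.27, adjusted p = 3.34e-04). Of the other phase 1 and phase 2 enzymes, 6 of 16 tested were lower in BURP-19NE and 3 of 17 in BURP-16SR, with none higher, beside 15% and 8.62% of all genes called lower. Between male and female Ba/Sq lines 2 of 18 other transferases tested were called, beside 2.31% of all genes, Gsta1 (-2.19, adjusted p = 0.0263) and Gsta2 (-3.02, adjusted p = 0.0131), both lower in males, and neither was called with counts summed per line (adjusted p = 0.483 for each).

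The genes whose log2 CPM was most like that of each transferase over the 24 tumors were named as a description. Gsta4 was most like Dsg3, a desmosomal cadherin of squamous epithelium, and Ripk4 (both r = 0.97). Gsto1 was most like Krt13, a keratin of stratified epithelium (r = 0.961), and Rab25 (r = 0.957). Gstk1 was most like Fzd6 (r = 0.925), and Gstp1 was most like March5 (r = 0.913) and the pseudogene Gstp-ps (r = 0.908), which may share its reads. Mgst2 was most like Gm37261 (r = 0.954), which lies within Mgst2. The nearest genes of Gstm1 reached r = 0.797 and those of Mgst1 r = 0.832. Among the 10 genes themselves Gsta4 and Gsto1 were the closest pair over all 24 tumors (r = 0.86), but not over the 18 Ba/Sq tumors (r = 0.2). Gstm2 and Mgst1, which lie on different chromosomes, correlated at r = 0.81 over all tumors and at r = 0.83 over the Ba/Sq tumors. The tumors differ in subtype, line and library at the same time, which all of these correlations share.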

How the data were processed

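RNA from 24 tumors of 8 BURP lines was sequenced after ribosomal RNA depletion with a stranded kit. The deposited values are estimated counts per gene, which the authors made with STAR 2.6.0a and RSEM 1.3.1 after CASAVA 1.8.2 (submitters' processing notes), and 12.5% of them were not whole. RSEM divides reads between similar genes, which bears on Gstp1 and the mu class. Counts were rounded, scaled by TMM and given as CPM over all 24 tumors. Groups were compared with edgeR 4.0.16 (R 4.3.3; quasi-likelihood, filterByExpr, calls at adjusted p below 0.05 and more than 2-fold), with DESeq2 1.42.0 and limma 3.58.1 as alternatives, and the code was tested on simulated data. Lengths and coordinates came from an annotation of GRCm38, where 99.8% of identifiers were found. All 10 transferases were named, and of each further list the 3 called genes with the largest change in either direction could be named. Those genes and lists were chosen with earlier results of these data known. Neither an RNA batch nor the drug treatment of a tumor was given in the sources used here. P-values may reflect technical as well as animal-to-animal spread.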

Additional observations from a re-analysis of the deposited data

Results flagged for a closer look

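Levels of the 10 genes were screened for tumors far from the rest in the 9 male and in the 9 female Ba/Sq tumors, 20 groups of values in all. In 8 of them the highest tumor was separated from the nearest tumor by more than 0.493 of the whole range. Chance gives about 1 in 20 groups only for independent values with a normal spread. These tumors share lines and the genes share tumors, so the 8 groups cannot be set against that rate. None of the 8 was past 0.493 on a log2 scale.

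Among female tumors, C102-M3 of BURP-25BaSq stood apart for Gstm1 (184.0 CPM), Mgst1 (66.1 CPM) and Gstp1 (119.6 CPM), and P4.2 of BURP-21BaSq for Gstk1 (9.14 CPM). Among male tumors, C152-M1 of BURP-17BaSq stood apart for Gstm2 (8.87 CPM), Mgst1 (23.9 CPM) and Gstt1 (2.48 CPM), and C165-M30 of the same line for Gsto1 (6045 CPM).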

How the results depend on the processing

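The counts of called genes among the 10 were recomputed with other scalings, filters and tools. The tally that follows is not of calls alone. It also holds counts of genes that kept their highest line, lowest line or rank per length, or lay above the median share of variance. Over all comparisons and settings a count stayed at 0 or within 1.5 times the reported one 79 times. It moved past that 9 times and rose from 0 another 10 times. With 1 tumor left out these numbers were 243, 6 and 3, with the highest-line and lowest-line counts again included. With at least 10 counts required in every tumor, fewer of the 10 genes could be tested, and 3 were called in BURP-19NE and 1 in BURP-16SR against the Ba/Sq tumors, 3 in BURP-16SR against BURP-19NE, 3 in BURP-24BaSq against BURP-16SR, and 4 across the 8 lines. With counts summed per line, 1 gene was called in BURP-19NE. Between the sexes, 1 gene in place of 0 was called by DESeq2, with all 24 tumors in 1 fit, and without BURP-12BaSq, BURP-17BaSq, BURP-21BaSq or BURP-24BaSq. Against the other Ba/Sq lines, DESeq2 called 2 genes in BURP-12BaSq, 1 in BURP-18BaSq and 2 in BURP-21BaSq, and the fit of all 24 tumors called 2 in BURP-12BaSq, 1 in BURP-18BaSq, 1 in BURP-21BaSq and 3 in BURP-25BaSq. The cause was not tested. The share of all genes called is not given for these settings or with 1 tumor left out, so these counts have no background beside them. Leaving out 1 tumor gave 3 to 7 calls in BURP-19NE, 3 to 4 in BURP-16SR, 5 to 8 between these lines, 5 to 6 in BURP-24BaSq against BURP-16SR, 0 to 1 between the sexes, 0 to 1 in BURP-12BaSq and BURP-18BaSq, 0 in BURP-17BaSq, BURP-21BaSq and BURP-24BaSq, 0 to 2 in BURP-25BaSq, and 8 to 10 across the 8 lines. Where a line keeps 2 tumors, their spread is taken to be that of the other tumors. The highest and lowest line stayed as reported for 8 to 10 of the 10 genes. Among 65 estimates that were neither called nor below an unadjusted p of 0.05, 93 of 1621 fits gave the other sign. Of the 1621 fits, 3 gave a call, each with the sign unchanged. No paired analysis was possible because the labels give codes such as C41-M3 or P4, unexplained in the labels, and nothing stated to pair tumors across lines. Genes near the floor, Gstt1 above all, cannot be ranked between lines at this depth.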
